A study of Mus musculus with 58 samples.

Results

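Tuba1c, Myo7a, Gm14150, Tmc4, Col11a1, Gm16105 and Tnni1 are 7 of the 54532 genes counted by RNA-seq in mouse striatum, and they were chosen by their measured values in these data, because they stood at separate levels among libraries of the 16p11.2 line or of the males of the 3g line. Their levels in those libraries are therefore given as a description, without a test. The genes encode proteins of different kinds. Tuba1c encodes an alpha tubulin, a subunit of microtubules. Myo7a encodes an unconventional myosin that organizes the stereocilia of inner ear hair cells and is known for its part in hereditary deafness. Tnni1 encodes the inhibitory troponin subunit of slow skeletal muscle, Col11a1 a chain of a minor fibrillar collagen, and Tmc4 a protein of the transmembrane channel-like family. Gm14150 is annotated as a pseudogene, and Gm16105 is a predicted gene without an entry in the RefSeq table used here.

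In the 16p11.2 line, del/+ mice carried a heterozygous deletion of the mouse segment that matches human 16p11.2, on chromosome 7. In the 3g line, del/+ mice carried premature stop codons, made with CRISPR/Cas9, in 1 copy each of Taok2, Sez6l2 and Mvp, which lie in that segment. The wt mice of each line were adult littermates by the study's methods, and the labels give the mixed strain B6129S for every sample. For the 3g line, the paper names a different strain for the males bred to make the embryos. The strain background of that line is therefore uncertain. RNA-seq was done on 4 libraries per sex and genotype in each line (32 libraries), and RNA from striatal lysates and ribosome footprints of the same lysates were sequenced from other mice, all males (16p11.2 line, 3 del/+ and 4 wt mice; 3g line, 3 del/+ and 3 wt mice; age not given in the labels). All 7 members were in the RNA-seq tables, and 5 of the 7 were in the lysate and footprint tables, which list 18411 genes (Gm14150 and Gm16105 were not in them). No source says how many litters each group came from, so p-values measure only the spread between these samples.

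The libraries had 26592767 to 41300015 counts (16p11.2 RNA-seq), 11711099 to 65529807 (3g RNA-seq), 15102576 to 19122488 (lysate RNA) and 342052 to 678130 (footprints). The deleted or edited genes were checked first. Taok2 had 79.5 to 90.8 CPM (counts scaled to library size) in the 8 16p11.2 del/+ RNA-seq libraries and 148 to 186 CPM in the 8 wt libraries, and Sez6l2 had 200.3 to 233 CPM in 3g del/+ and 285 to 349.6 CPM in 3g wt libraries. Taok2 did not separate the 3g genotypes (166 to 204 CPM in del/+ and 184 to 189.7 CPM in wt libraries). By qPCR, the paper reports lower striatal mRNA of each edited gene, Taok2 among them. Values of Mvp are not given here. Markers of striatal projection neurons were detected in every RNA-seq and lysate RNA library (9 of 9 genes). Single libraries stood apart in ways that touch the results. Against its sex label, 16p11.2 del/+ female 1 gave 37.1 CPM of Ddx3y, a gene of the Y chromosome, and 0.445 CPM of Xist. On a scale over 20342 genes that runs from 0 (average 3g wt female) to 1 (average 16p11.2 wt female), 3g wt male 17 was at 0.878 and 16p11.2 del/+ male 4 at 0.204, while the other 15 libraries of each line were between −0.0807 and 0.166 (3g) and between 0.840 and 1.19 (16p11.2). Fitted differences between del/+ and wt are therefore also given without del/+ female 1 and without 3g wt male 17. Without del/+ male 4 they are given for Tmc4, Col11a1 and Gm16105. For the other members that library enters only the ranges over left-out libraries. What set these libraries apart was not tested.

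The upstream sequences of Tuba1c and Myo7a, whose levels were the most widely separated, and of Trim12a, which lay on the side of Myo7a in all 16 RNA-seq libraries of the 16p11.2 line, are given 5′ to 3′ (RefSeq, GRCm38.p6). The windows searched were the 250 bases before 1 annotated transcript start of each gene. The last 29 bases of the Myo7a window and the last 63 of the Trim12a window lie inside the annotated gene, which reaches further, and were searched but are not printed. Capitals mark matches on either strand to CCAAT, the CCAAT box, or to GGGCGG, the core of a GC box. No match to TATAAA, the TATA box, was found in these windows.

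Tuba1c (chr15:99029641-99029890, plus strand): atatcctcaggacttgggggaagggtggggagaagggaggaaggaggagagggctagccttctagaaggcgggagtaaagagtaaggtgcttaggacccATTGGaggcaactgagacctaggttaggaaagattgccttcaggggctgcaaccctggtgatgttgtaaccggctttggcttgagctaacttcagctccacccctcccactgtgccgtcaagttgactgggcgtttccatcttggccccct
Myo7a (chr7:98119523-98119743, minus strand): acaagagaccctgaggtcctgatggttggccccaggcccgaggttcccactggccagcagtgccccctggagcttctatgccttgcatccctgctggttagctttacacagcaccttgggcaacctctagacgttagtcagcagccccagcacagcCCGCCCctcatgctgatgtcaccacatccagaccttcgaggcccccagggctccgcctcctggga
Trim12a (chr7:104315559-104315745, minus strand): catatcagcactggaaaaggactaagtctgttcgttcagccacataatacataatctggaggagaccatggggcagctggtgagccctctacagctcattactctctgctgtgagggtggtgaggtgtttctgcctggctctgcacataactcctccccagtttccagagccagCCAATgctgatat

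The Tuba1c window held 1 match to CCAAT, 151 bases before the start. The Trim12a window held 2 matches to CCAAT, 76 and 10 bases before the start, and none to GGGCGG, and the Myo7a window 2 matches to GGGCGG, 94 and 11 bases before the start, and none to CCAAT. In both genes the match nearer the start lies inside the annotated gene. Such matches were common, in 33.8% (CCAAT) and 32.7% (GGGCGG) of the 32851 windows of the same length, against 12.4% for TATAAA. No motif of the 3 searched was in all 3 windows, and the Tuba1c and Trim12a windows both held CCAAT.

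To ask whether the 16 RNA-seq libraries of the 16p11.2 line fell into separate levels, they were ordered by log2(CPM + 0.5) and the largest gap between neighbours was taken. A gene was said to have 2 levels when that gap was at least 1 (2-fold) with 2 or more libraries on each side. Of 18870 genes that passed the filter on low counts, 79 had 2 levels (0.419%). Among the members 4 of 7 did, Tuba1c, Gm14150, Myo7a and Tnni1, a share that the choice of the members fixes. For Tmc4, Col11a1 and Gm16105, the largest gap separated 1 library from the other 15.

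Tuba1c had the widest gap of the members, 3.06 on the log2 scale. In wt females its level was 14.4, 14.3, 32.6 and 13.9 CPM (replicates 1 to 4), in del/+ females 0.549, 16.3, 16.3 and 28.9 CPM, in wt males 1.00, 0.481, 1.03 and 41.8 CPM, and in del/+ males 28.6, 17.2, 13.8 and 12.3 CPM. Thus 4 libraries lay low, 3 of the 4 wt males and the library labelled del/+ female 1, and the other 12 lay above them. As given above, del/+ female 1 had RNA of a Y chromosome gene against its label. No library with both the label and the expression of a female thus lay low. Of the males, wt male 4 and all del/+ males lay above, and a part of sex was not tested. Both levels held del/+ and wt libraries. In bulk striatum, fewer cells that express a gene and less RNA per cell cannot be told apart. The low libraries had 19 to 37 Tuba1c counts and the others 367 to 1272. Summed levels of each of 8 lists of cell type markers overlapped between the higher and the lower libraries of Tuba1c, and likewise for Gm14150, Myo7a and Tnni1. Of these lists, choroid plexus (7 genes) set del/+ female 1 apart, at 108 CPM against 8.87 to 72.7 CPM in the other 15 libraries, and its part in the result was not tested. The fitted log2 difference between del/+ and wt was 0.71 in males, where it was 4.43 without wt male 4, and −0.28 in females, where it was 0.13 without del/+ female 1. For Gm14150 the difference was 0.65 in males (3.36 without wt male 4) and −0.32 in females (0.04 without del/+ female 1).

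Gm14150 put the same 12 libraries above and the same 4 below its largest gap, which was 1.76. Its level was 3.23 to 10.5 CPM in the 12 libraries and 0.313 to 0.601 CPM in the 4. Tuba1c and Gm14150 lie on different chromosomes (15 and 2). The only other tested gene with this split of the libraries was Gm47021, at 0.370 to 2.16 CPM above and 0.0506 to 0.157 CPM below. The ratio of Gm14150 to Tuba1c counts was 0.264 in the median of the 16 libraries (0.224 to 1.10) and 0.313 in the 3g line (0.279 to 0.783). The 4 highest ratios of the 32 libraries were in libraries with 19 to 37 counts of Tuba1c, 3 of the 16p11.2 line and 3g wt male 17. How similar the sequences of Tuba1c and Gm14150 are, and whether reads were divided between them by the counting, was not tested.

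**Figure D1:**
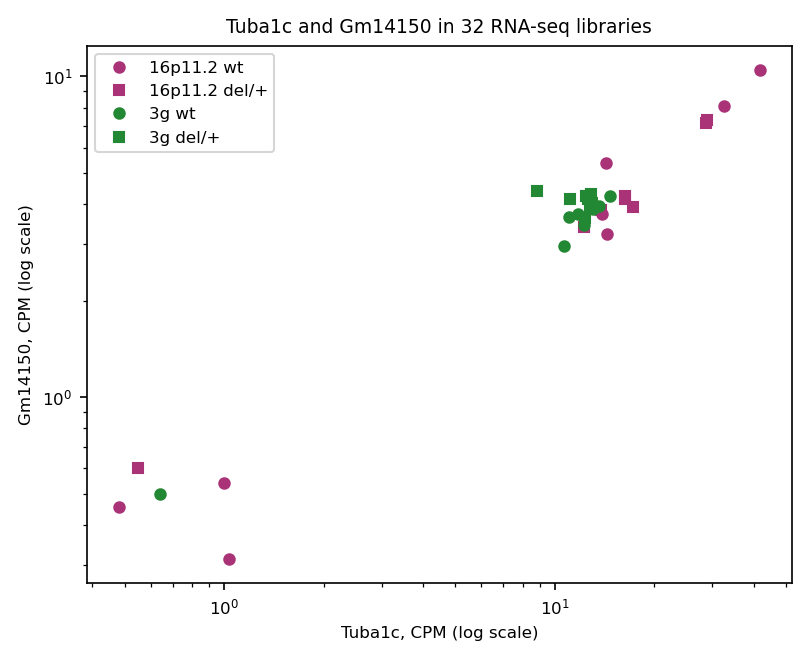
CPM of Tuba1c (x axis) and Gm14150 (y axis), both on log scales, in the 32 RNA-seq libraries (circles wt, squares del/+). A group of 5 libraries, 4 of the 16p11.2 line and 1 of the 3g line, lies at the lower left, at most 1.03 CPM of Tuba1c, and the other 27 at 8.87 CPM or more.

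Within the 12 higher libraries, Tuba1c also had a smaller gap, of 0.72, that was looked for after its values were seen. The 4 libraries wt male 4, wt female 3, del/+ female 4 and del/+ male 1 had 28.6 to 41.8 CPM, and the other 8 had 12.3 to 17.2 CPM. For Gm14150 the same 4 libraries were highest, at 7.15 to 10.5 CPM against at most 5.38 CPM, with a gap of 0.38.

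Myo7a had 2 levels that followed genotype in part, with a gap of 2.15. Its level was 1.18, 13.2, 1.47 and 1.39 CPM in wt females 1 to 4, 11.9, 10.3, 11.5 and 23.7 CPM in del/+ females, 1.81, 1.34, 1.94 and 12.2 CPM in wt males, and 11.995, 11.1, 21.2 and 23.97 CPM in del/+ males. All 8 del/+ libraries and 2 of the 8 wt libraries, wt female 2 and wt male 4, lay above the gap, and the other 6 wt libraries lay below it. The fitted log2 difference between del/+ and wt was 1.995 in males and 1.81 in females, and it was 3.33 without wt male 4, 3.42 without wt female 2 and 1.89 without del/+ female 1. Myo7a also had a smaller gap within the higher libraries, of 0.66, looked for after the values were seen: del/+ female 4 and del/+ males 3 and 4 had 21.2 to 23.97 CPM and the other 7 had 10.3 to 13.2 CPM.

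Tnni1 had 2 levels with a gap of 1.35. Its level was 4.26, 0.741, 0.686 and 0.622 CPM in wt females 1 to 4, 0.811, 4.84, 5.75 and 3.93 CPM in del/+ females, 4.65, 3.97, 3.85 and 0.328 CPM in wt males, and 0.842, 6.26, 4.98 and 1.21 CPM in del/+ males. Its fitted log2 difference between del/+ and wt was 0.06 in males, where it turned to −0.45 without del/+ male 2, and 1.23 in females (1.57 without del/+ female 1, 2.48 without wt female 1). The 9 higher libraries were 5 del/+ and 4 wt, and the 7 lower ones 3 del/+ and 4 wt. Markers of skeletal muscle, the tissue Tnni1 is named for (8 genes, of which Tnnc2 was at 0 in all 16 libraries), summed to 8.28 to 13.2 CPM in the 9 higher libraries and 6.70 to 12.8 CPM in the 7 lower ones, so the ranges overlapped. The list holds no marker particular to slow muscle, so it cannot show whether slow muscle RNA went with the levels of Tnni1.

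**Figure D2:**
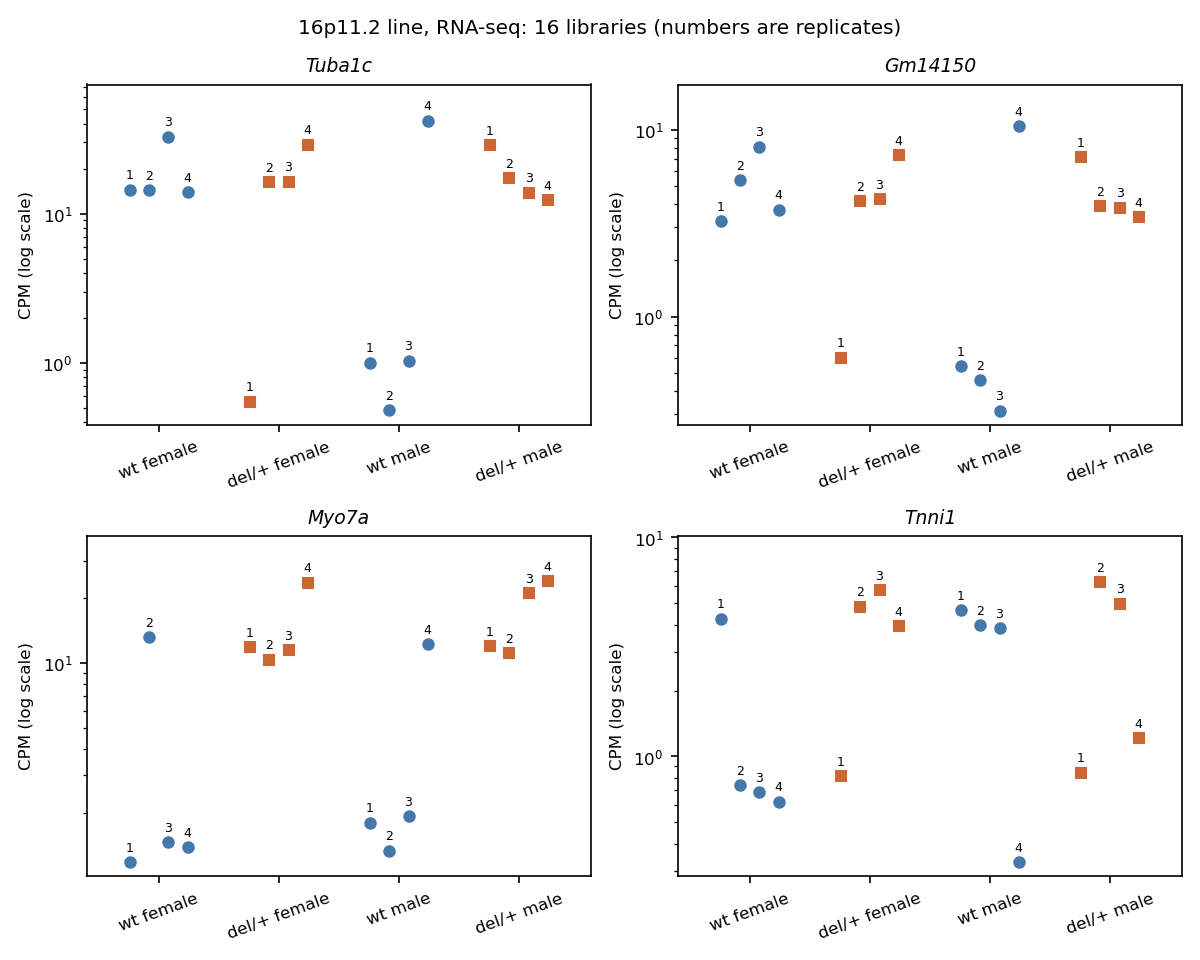
CPM (log scale) of Tuba1c, Gm14150, Myo7a and Tnni1 in the 16 RNA-seq libraries of the 16p11.2 line, by group; circles are wt, squares del/+, and the number is the replicate. Tuba1c and Gm14150 are low in the same 4 libraries, Myo7a in 6 wt libraries, and Tnni1 in 7 libraries of both genotypes.

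The splits of these genes were mostly different. Tuba1c and Gm14150 put 16 of 16 libraries on the same side. Tuba1c and Myo7a agreed in 12 of 16 libraries, with wt males 1 to 3 low for both, and differed in del/+ female 1 and wt females 1, 3 and 4. Tnni1 and Tuba1c, and likewise Tnni1 and Myo7a, had 7 of 16 libraries on the same side. For Tnni1 the 1 other gene with its split was Cep112, a centrosomal protein gene, with a gap of only 0.12 (2.56 to 3.32 CPM above and 1.87 to 2.33 CPM below).

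The split of Myo7a was shared in the same direction by 4 other genes, and all 4 lie on chromosome 7 as Myo7a does, which holds 7.69% of the tested genes that have a position. The 4 genes are Rps13-ps2, 9.52 Mb before the start of Myo7a, and Rnf169, Trim12a and Itpripl2, 1.87, 6.25 and 20.4 Mb after it. Trim12a, a gene of the tripartite motif family, had 0 counts in each of the 6 low wt libraries, where a count of 0 allows up to 3, and 22 to 98 counts (0.749 to 2.69 CPM) in the other 10. Rps13-ps2, a ribosomal protein pseudogene, had 0.858 to 2.49 CPM above and 0.0746 to 0.148 CPM below. For Rnf169, a ubiquitin ligase gene, the level was 39.5 to 62.7 CPM above and 29.6 to 32.3 CPM below (gap 0.29), and for Itpripl2 5.09 to 7.42 CPM above and 3.35 to 3.87 CPM below (gap 0.35). Trim12a has similar genes beside it and Rps13-ps2 has a parent gene, so reads may have been divided among copies. Of the 20 nearest tested genes around Myo7a, which span 1.52 Mb, none had the split, and the closest put 12 of 16 libraries on the same side. Looked for after the values were seen, 1 tested gene had the reverse of this split, with 0 of 16 libraries on the same side. It was Me3, a mitochondrial malic enzyme gene that starts 8.42 Mb before Myo7a on the same chromosome, and its gap was small (0.16; 94.0 to 107 CPM above and 64.1 to 84.0 CPM below).

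**Figure D3:**
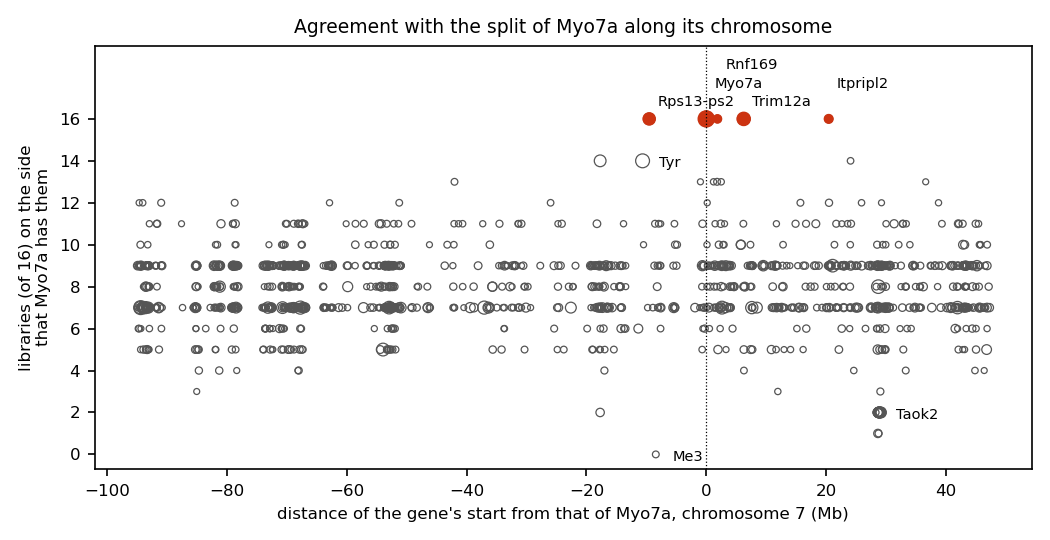
For each tested gene of chromosome 7, the number of libraries (of 16) that its largest gap puts on the side where Myo7a has them (y axis; above or below the gap in the same direction) against the distance of its start from that of Myo7a in Mb (x axis); larger circles have larger gaps. The 5 filled circles are Myo7a and the 4 genes that agree in 16 of 16 libraries, and Tyr agrees in 14 of 16. Me3 lies at 0 of 16, and Taok2 of the deleted segment at 2 of 16.

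Myo7a lies 28.8 Mb from Taok2 in the deleted segment. Tyr, the tyrosinase gene of the pigment pathway, starts 10.6 Mb before Myo7a and separated by genotype without exception, at 1.87 to 8.32 CPM in the 8 del/+ libraries and 0 to 0.234 CPM in the 8 wt libraries. Myo7a and Tyr thus agreed in 14 of 16 libraries, and differed in wt female 2 and wt male 4. Around Tuba1c, Gm14150 and Tnni1, none of the 20 nearest tested genes shared the split either.

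Tmc4, Col11a1 and Gm16105 shared their split, with del/+ male 4 alone above. Tmc4 had 7.08 CPM in del/+ male 4 and 0.170 to 1.83 CPM in the other 15 libraries. Col11a1 had 35.9 CPM there and 1.51 to 11.3 CPM elsewhere. Gm16105 had 7.91 CPM there and 0.394 to 2.54 CPM elsewhere. This library stood alone at the top for 2844 of the 18870 tested genes (15.1%), more than any other library (at most 1220 genes), and alone at the bottom for 2941, and the genes with this split and the widest gaps were the collagen genes Col7a1 (8.57 CPM against 0.408 to 1.95) and Col24a1 (18.9 CPM against 0.253 to 4.80). The fitted log2 difference between del/+ and wt males was 1.73 for Tmc4, 1.698 for Col11a1 and 1.32 for Gm16105, and without del/+ male 4 it was 0.65, 0.52 and 0.52. In females it was 0.23, −0.05 and −0.20, and without the library labelled del/+ female 1 it was −0.29, −0.63 and −0.52. Without del/+ female 2 it turned to 0.25 for Col11a1 and 0.12 for Gm16105. The summed level of 6 oligodendrocyte markers, all detected in every RNA-seq library, was 5339 CPM in del/+ male 4 and 8203 to 13530 CPM in the other 15. Astrocyte markers (5 genes, 1359 against 1402 to 2069 CPM) and skeletal muscle markers (8 genes, 6.70 against 8.28 to 13.2 CPM) were also lowest there, and the other 5 lists, among them meninges and fibroblasts, lay within the range of the other libraries. The part of these cell types in the result was not tested.

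In the 3g line the 7 members varied little among 15 of the 16 libraries, and 3g wt male 17 stood apart for all 7. The members were chosen in part by levels among 3g males, and how many of all genes set this library apart was not counted. The 7 of 7 is therefore no result about the members. Across the 15 libraries Tuba1c had 8.87 to 14.7 CPM, Gm14150 2.96 to 4.39 CPM, Myo7a 12.4 to 15.9 CPM and Tnni1 2.20 to 3.41 CPM. In wt male 17 they had 0.639, 0.4998, 1.80 and 5.08 CPM, so this library lay at the low side of the 16p11.2 line for the first 3 genes and at its high side for Tnni1. Tmc4 had 5.27 to 7.84 CPM in the 15 libraries and 1.33 CPM in wt male 17, Col11a1 34.97 to 58.2 and 6.58 CPM, and Gm16105 5.93 to 9.46 and 2.03 CPM. With each line scaled on its own, del/+ male 4 of the 16p11.2 line lay within the range of the 15 3g libraries for these 3 genes, which had been chosen for that library, and for Tuba1c and Gm14150, but above it for Myo7a (23.97 CPM) and below it for Tnni1 (1.21 CPM). For all 7 members wt male 17 of the 3g line lay within the range of the other 15 16p11.2 libraries. For Tuba1c, Gm14150, Myo7a and Tnni1 that range was wide and also held the other 15 3g libraries. Only for Tmc4, Col11a1 and Gm16105 did it set wt male 17 apart from them. Oligodendrocyte markers summed to 11232 CPM in wt male 17 and 4237 to 7582 CPM in the other 15, and markers of cortical neurons (7 genes) to 996 CPM against 92.5 to 709 CPM. In this library 6 of the 8 lists lay outside the range of the other 15 libraries. Their part in the result was not tested. Trim12a, too, had 0 counts in wt male 17 and 7 to 79 counts in the other 15.

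**Figure D4:**
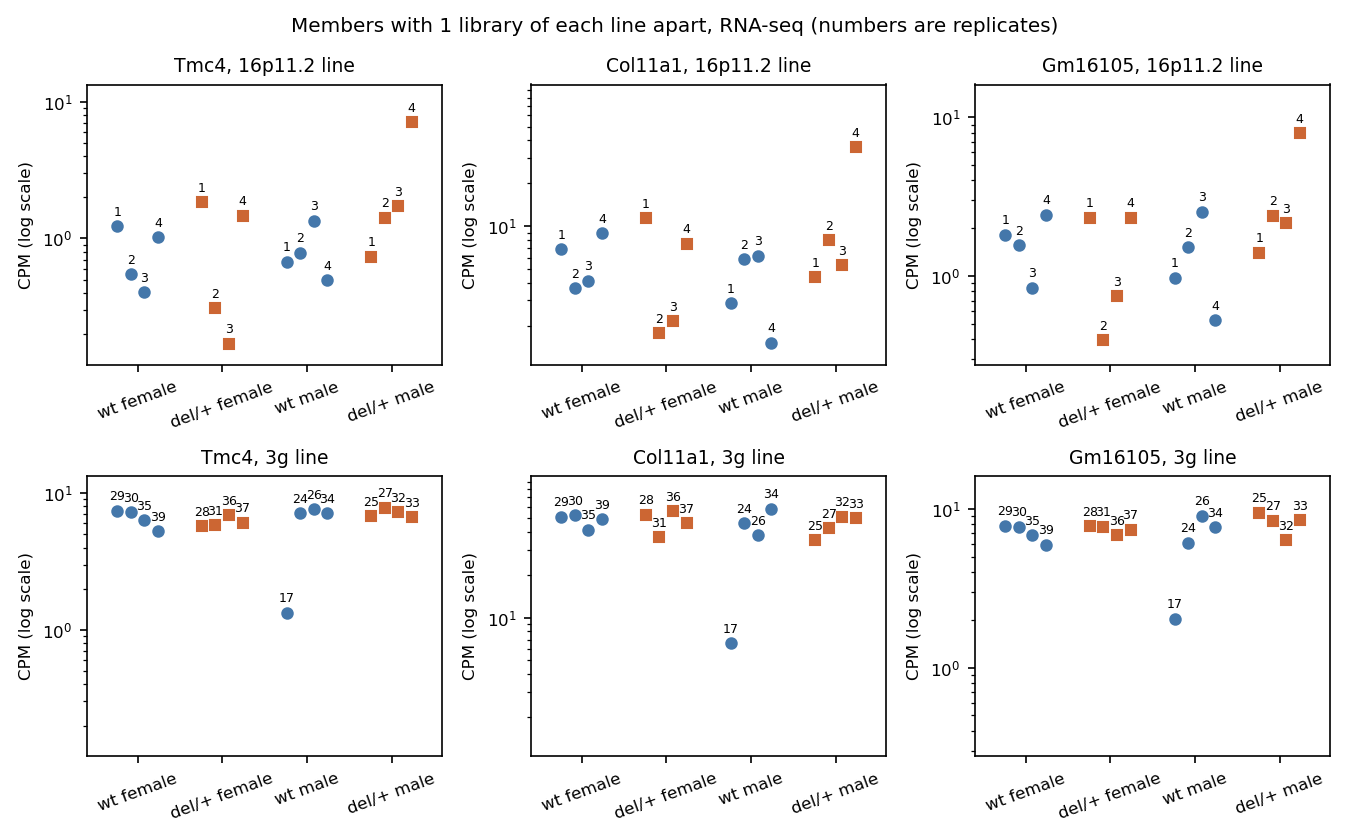
CPM (log scale) of Tmc4, Col11a1 and Gm16105 in the RNA-seq libraries of the 16p11.2 line (top) and the 3g line (bottom), on the same axis for each gene; circles are wt, squares del/+, and the number is the replicate. In the top row del/+ male 4 lies above the other 15 libraries, and in the bottom row wt male 17 lies below the other 15.

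A gene that differed widely between the lines, Lars2, lay in the same order in these libraries. Lars2, a mitochondrial leucyl-tRNA synthetase gene, had 1399.5 CPM in 3g wt male 17 and 55.9 CPM in 16p11.2 del/+ male 4, against 668 to 2216 CPM in the wt libraries of the 16p11.2 line and 73.4 to 100.4 CPM in the wt females of the 3g line. In 3g males the fitted log2 difference between del/+ and wt was 0.36 for Tuba1c, 0.59 for Gm14150, 0.23 for Myo7a, 0.30 for Tmc4, 0.27 for Col11a1, 0.39 for Gm16105 and −0.24 for Tnni1. Without wt male 17 it was −0.02, 0.25, −0.12, −0.02, −0.07, 0.09 and 0.03.

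Females of the 3g line were not used to choose the members and gave a test. With the quasi-likelihood test of edgeR and p-values adjusted by Benjamini-Hochberg, 1 of 19024 genes was called between del/+ and wt females (0.00526%), and 0 of the 7 members (adjusted p 0.334 to 0.959). Myo7a had the smallest of these, with 13.0 ± 0.33 CPM in the del/+ group against 14.6 ± 0.60 CPM in the wt group (SD, n = 4 each), a log2 difference of −0.16 ± 0.05 (SE, edgeR adjusted p = 0.334), and was the only member with an unadjusted p under 0.05. Of all genes, 2098 of 19024 had an unadjusted edgeR p under 0.05 here. DESeq2 called 0 of the 7 as well.

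The lysate RNA of the 16p11.2 line came from other animals, and there Myo7a again had 2 levels, with a gap of 1.95. Its level was 0.301, 6.94, 3.65 and 6.81 CPM in wt mice 1 to 4, and 0.391, 0.576 and 0.202 CPM in del/+ mice 1 to 3. The mice are numbered within genotype in the order of their labels. The 3 del/+ mice and 1 wt mouse were low, at 3 to 10 counts, and the other 3 wt mice had 60 to 113 counts. The del/+ side of Myo7a was thus the high one in the RNA-seq libraries and the low one in the lysate RNA. Taken over the groups, the log2 difference was −3.44 ± 0.83 (SE; del/+ 0.39 ± 0.19 CPM, n = 3, wt 4.42 ± 3.13 CPM, SD, n = 4) and was not called by edgeR's quasi-likelihood test (adjusted p = 0.553), where 19 of 14330 genes were called (0.133%). Without wt mouse 1 it was −3.84 with an adjusted p of 0.00512, and under the other alternatives that kept the gene in the test the edgeR and DESeq2 adjusted p was 0.274 to 1. Myo7a passed the filter on low counts only through the 3 wt mice with the higher level. The p-values after that filter thus rest on the group where Myo7a was high and are not taken as support. Of the 14330 genes, 42 had 2 levels among the 7 libraries by the same gap rule (0.293%).

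Trim12a was lowest in the same 4 mice as Myo7a, but its largest gap (0.98) lay higher, between wt mouse 3 and wt mice 2 and 4. In the lysate RNA it had 2, 36, 13 and 34 counts in wt mice 1 to 4 and 5, 4 and 2 counts in del/+ mice 1 to 3 (0.1002 to 0.326 CPM in the 4 low mice, 0.790 to 2.52 CPM in the other 3). Of the tested genes, 17 others had the split of Myo7a as their largest gap, and 0 of the 17 with a gap of at least 1. Rnf169 and Itpripl2 did not separate these mice, with 91.6 to 113 and 6.39 to 8.12 CPM in the 4 mice low for Myo7a and 107 to 145 and 7.84 to 11.1 CPM in the other 3. Tyr was on the same side as in RNA-seq, at 1.48 to 2.48 CPM in the 3 del/+ and 0.0501 to 0.243 CPM in the 4 wt mice. It was higher in del/+ (log2 difference 3.77 ± 0.50, edgeR adjusted p = 0.00718). Tyr passed the filter on low counts only through the del/+ mice, where it was high, so this p is not taken as support beyond the values. In the del/+ mice, Tyr was thus on its high and Myo7a on its low side.

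**Figure D5:**
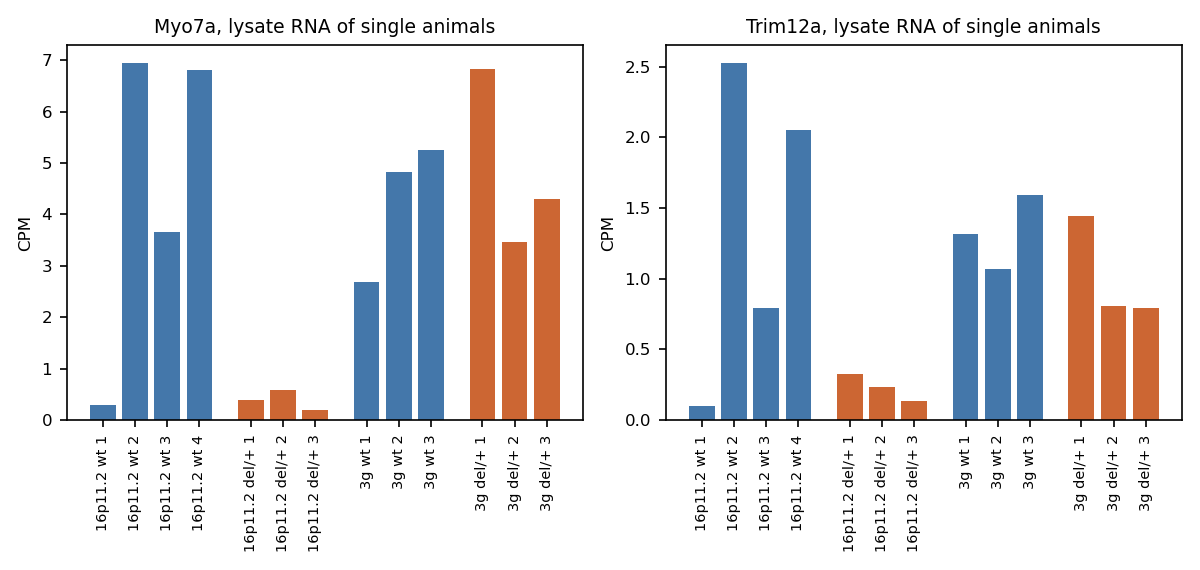
CPM of Myo7a (left) and Trim12a (right) in lysate RNA, 1 bar per mouse (blue wt, orange del/+; numbers name the mice). In the 16p11.2 line, wt mouse 1 and del/+ mice 1 to 3 are the 4 lowest for both genes, and the 6 mice of the 3g line lie at 2.68 CPM or more of Myo7a.

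The other members present in lysate RNA showed no such separation in the 16p11.2 line. Tuba1c had 25.02 to 39.6 CPM in its 7 mice, with a largest gap of 0.23, and 24.8 to 38.5 CPM in the 6 mice of the 3g line. No mouse was near the CPM of the low RNA-seq libraries. Lysate RNA was counted with other tools and another genome build, so the levels are not on a common scale. Tmc4 had 1.09 to 2.11 CPM and Col11a1 3.10 to 5.46 CPM in the 16p11.2 line. Tnni1 had 0.0603 to 2.48 CPM (1 to 43 counts), with a largest gap of 0.78. By edgeR, 0 of the 5 members were called between del/+ and wt (adjusted p 0.553 to 0.996) and 0 by DESeq2. Only Myo7a had an unadjusted edgeR p under 0.05, as did 632 of all 14330 tested genes.

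In the 3g line, lysate RNA gave Myo7a levels of 2.68, 4.83 and 5.24 CPM in wt mice 1 to 3 and of 6.82, 3.47 and 4.30 CPM in del/+ mice 1 to 3, a range that lies with the higher mice of the 16p11.2 line. By edgeR, 3 of 14378 genes were called between del/+ and wt (0.0209%) and 0 of the 4 members that passed the filter (adjusted p 0.966 to 0.981; 0 with an unadjusted p under 0.05; 0 by DESeq2). Tnni1 did not pass the filter, but had 2 levels by the gap rule (gap 1.15): wt mouse 3 and del/+ mouse 3 had 22 and 23 counts (1.30 CPM) and the other 4 mice 4 to 5 counts (0.222 to 0.310 CPM). Of the 14378 genes that passed, 16 had 2 levels among the 6 libraries (0.111%).

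Between the wt mice of the lines, in lysate RNA, 2 of 14417 genes were called by edgeR (0.0139%) and 0 of the 5 members, with adjusted p from 0.309 (Col11a1) to 0.942 (Myo7a). Col11a1 had 4.72 ± 0.74 CPM in 16p11.2 wt (n = 4) and 7.01 ± 1.49 CPM in 3g wt mice (SD, n = 3), a log2 difference of −0.57 ± 0.19 (SE), and was the only member with an unadjusted p under 0.05. Of all genes, 1555 of 14417 had an unadjusted edgeR p under 0.05 here. DESeq2 gave an adjusted p for 1 of the 5 members and called none. Line and preparation of the table cannot be told apart here. In RNA-seq, Col11a1 had 3.67 to 8.93 CPM in the wt females of the 16p11.2 line and 41.5 to 52.3 CPM in those of the 3g line, each scaled within its own line.

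Footprints gave few counts of the members. Myo7a had 28, 14, 21 and 12 counts in wt mice 1 to 4 and 12, 8 and 15 counts in del/+ mice 1 to 3 of the 16p11.2 line. The wt mouse that was low in lysate RNA, mouse 1, thus had the most footprint counts of Myo7a, and the footprints did not separate the mice as the lysate RNA did. In CPM this mouse had 78.1 in footprints and 0.301 in lysate RNA. The mice of this line had 21.8 to 78.1 CPM in footprints and 0.202 to 6.94 CPM in lysate RNA. Whether these footprints come from translation of Myo7a was not tested. Tuba1c had 7 to 31 counts in that line and 17 to 29 in the 3g line. By edgeR, 0 of the 2 members that passed the filter were called in the 16p11.2 line (Tuba1c and Myo7a, adjusted p 0.965 and 0.962; 7 of 5964 genes called, 0.117%) and in the 3g line (adjusted p 0.792 and 0.998; 1 of 7553 genes called, 0.0132%). In both lines 0 of them had an unadjusted p under 0.05, and DESeq2 gave neither gene an adjusted p. Tmc4, Col11a1 and Tnni1 had at most 10 counts in any footprint library and did not pass. At these counts all 3 in the 16p11.2 line, and Tnni1 in the 3g line, met the gap rule.

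Relatives of the members showed no 2 levels in the 16p11.2 line. Only 0.419% of all tested genes had 2 levels there, so their absence from lists this short is no result about the families. Of the other alpha tubulin genes, 4 of 7 passed the filter and 0 had 2 levels. Tuba1a had 309 to 543 CPM and Tuba4a 354 to 548 CPM. Among 12 genes whose products work with Myo7a in hair bundles or are related myosins, 10 passed and 0 had 2 levels, with Myo6 at 106 to 147 CPM and Whrn at 23.9 to 33.7 CPM. Of the TMC family 4 of 7 passed (Tmc7, 8.89 to 19.4 CPM), and of the troponins 5 of 7 (Tnnt2, 2.28 to 4.26 CPM), and none had 2 levels.

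Of the 10 other fibrillar collagen genes, all passed the filter, and for 6 of the 10 the largest gap set del/+ male 4 alone above, as for Col11a1, against 15.1% of all tested genes. The median largest gap of the 10 genes was 0.73, against 0.20 over all tested genes. Col5a1 had 26.8 CPM in that library and 1.80 to 12.03 CPM in the other 15, and Col11a2 49.6 CPM and 14.8 to 29.9 CPM. In the 3g line Col5a1 had 10.7 to 27.8 CPM in 15 libraries and 7.44 CPM in wt male 17. Over the 6 tested comparisons the 5 families gave 125 tests, of which 0 were called by edgeR or by DESeq2 and 13 had an unadjusted edgeR p under 0.05. Of all genes, 2098 of 19024 had such a p in 3g females and 1555 of 14417 between the wt mice of the lines. The counts were 632 of 14330 and 707 of 14378 in 16p11.2 and 3g lysate RNA, and 367 of 5964 and 602 of 7553 in their footprints. DESeq2 gave an adjusted p to 2870 and 860 genes in these footprints and to 6231 between the lines. It may therefore not have tested all 125.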

How the data were processed

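The authors deposited whole-number counts for each gene. The RNA-seq counts came from the bcbio-nextgen pipeline (paper), and the submitters' processing notes name HTSeq and mm10. For lysate RNA and footprints they name Bowtie2 and mm39, and other steps are not given in the sources used here. The paper and the labels differ on RNA extraction and on rRNA depletion or polyA RNA, and the labels' extraction text names human brains, so the preparation is uncertain. Columns were assigned to samples by their labels, and no 2 libraries were identical.

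CPM was scaled by TMM within each table, or within the libraries compared where a mean ± SD is given. Levels were compared on log2(CPM + 0.5). Genes were positioned with the RefSeq table of GRCm38.p6 (90.6% of the tested genes had a position), and neighbours were the 10 tested genes on each side. Comparisons used edgeR 4.0.16 in R 4.3.3 (filterByExpr, TMM, glmQLFit, glmQLFTest) with Benjamini-Hochberg adjusted p under 0.05, SE being the log2 difference divided by the root of F. Alternatives were DESeq2 1.42.0, RLE size factors, no filter, other pseudocounts and gaps, and leaving out each library. The fits were tested on simulated counts and recovered 99 to 100 percent of 200 genes changed 4-fold, with 8 to 16 false calls. The changed genes were drawn only from the more highly expressed genes and had no separate levels within a group. This recovery therefore does not apply to members with few counts or with 2 levels. Precision is limited by the totals given in the report, and intervals from counts cover counting error only.

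The genes named are the members, for each the 3 other tested genes with the same split and the widest gap, neighbours with the same split, checks of genotype, sex and line, and examples from lists of relatives. Rnf169 and Tyr's distance to Myo7a were added after values were seen. The members, lists and rules were chosen with earlier results of these data known.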

Additional observations from a re-analysis of the deposited data

Results flagged for a closer look

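Within groups of 4 libraries, 13 of 61 combinations of gene and group had 1 library whose gap to the nearest of the others exceeded Dixon's 95% critical value, which chance alone reaches in about 1 of 20 groups. The members were chosen for such separate levels, so the number is no test. In the 16p11.2 line, del/+ female 1 was lowest for Tuba1c (0.549 CPM) and del/+ female 4 highest for Myo7a (23.7 CPM). Among the wt females, replicate 2 was highest for Myo7a (13.2 CPM), replicate 1 for Tnni1 (4.26 CPM) and replicate 3 for Tuba1c (32.6 CPM). Among the wt males, replicate 4 was highest for Gm14150 (10.5 CPM), Myo7a (12.2 CPM) and Tuba1c (41.8 CPM) and lowest for Tnni1 (0.328 CPM), so 4 of the 13 came from this library. In the 3g line, wt male 17 was lowest for Gm14150 (0.4998 CPM), Myo7a (1.80 CPM), Tmc4 (1.33 CPM) and Tuba1c (0.639 CPM).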

How the results depend on the processing

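The number of members with 2 levels was 4 with a pseudocount of 0.1 CPM, RLE scaling, scaling over the 32 libraries together, and without del/+ male 4 or del/+ female 1. It was 3 with a pseudocount of 2 CPM, where Tnni1 had a gap of 0.87, and 2 with a gap of at least 2. The genes that shared the split of Myo7a numbered 4 or 5 under the alternatives.

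The replicate numbers 1 to 4 of the 16p11.2 line gave no sign of pairing, since same-numbered libraries of 1 sex correlated in their deviations from the group means at −0.256 to 0.107. With the replicate block, the log2 difference between del/+ and wt in males was 3.24 in place of 0.71 for Tuba1c and 2.27 in place of 0.65 for Gm14150, and it moved by less than the spread between replicates for the other members in males and for all 7 in females. Leaving out each library gave 0.31 to 4.43 for Tuba1c, 1.69 to 3.33 for Myo7a, 0.28 to 3.36 for Gm14150, 0.65 to 2.07 for Tmc4, 0.52 to 1.98 for Col11a1 and 0.52 to 1.77 for Gm16105 in 16p11.2 males, and 1.44 to 3.42 for Myo7a and 0.95 to 2.48 for Tnni1 in females. The direction of this difference turned when 1 library was left out for Tnni1 in males (−0.45 to 0.37) and, in females, for Tuba1c (−0.79 to 0.13), Gm14150 (−0.78 to 0.04), Tmc4 (−0.29 to 0.56), Col11a1 (−0.63 to 0.25) and Gm16105 (−0.52 to 0.12). The highest values of Tuba1c, Myo7a and Gm14150 in males were without wt male 4, and the lowest of Tmc4, Col11a1 and Gm16105 without del/+ male 4. In females the highest were without wt female 2 (Myo7a) and wt female 1 (Tnni1).

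No member was called under any alternative of the 6 tested comparisons except Myo7a in 16p11.2 lysate RNA without wt mouse 1 (0 to 1 members called when leaving out 1 library, Myo7a −3.84 to −3.14 on the log2 scale). Without wt mouse 2, 3 or 4 Myo7a did not pass the filter. The number of all genes called moved more. DESeq2 called 113 (3g females, edgeR 1), 32 (16p11.2 lysate RNA, edgeR 19), 13 (3g lysate RNA, edgeR 3), 19 (16p11.2 footprints, edgeR 7), 13 (3g footprints, edgeR 1) and 167 genes (wt of both lines, edgeR 2). Without the filter edgeR called 158, 20, 9, 43, 127 and 5 genes in the same order. Leaving out each library gave 1 to 175 (175 without wt female 39 and 18 without del/+ female 37), 10 to 19 (10 without del/+ mouse 2), 3 to 12 (12 without del/+ mouse 1), 2 to 13 (2 without wt mouse 4), 0 to 24 (24 without wt mouse 1) and 0 to 4 genes (0 without 3g wt mouse 3). The cause was not tested.

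Some uncalled members changed direction when 1 library was left out. The ranges on the log2 scale were −0.093 to 0.021 (Tuba1c), −0.10 to 0.085 (Col11a1) and −0.12 to 0.016 (Tnni1) in 3g females, −0.031 to 0.25 (Tuba1c), −0.27 to 0.15 (Tmc4) and −1.48 to 0.79 (Tnni1) in 16p11.2 lysate RNA, and −0.11 to 0.40 (Myo7a), −1.02 to 0.019 (Tmc4) and −0.48 to 0.18 (Col11a1) in 3g lysate RNA. For Myo7a they were −0.61 to 0.031 in 16p11.2 and −0.49 to 0.34 in 3g footprints (0.055 without the filter). Between the wt mice of the lines they were −0.047 to 0.30 (Tuba1c), −0.12 to 0.60 (Myo7a) and −0.35 to 0.012 (Tmc4). Depth limits the footprints, where Myo7a and Tuba1c had 7 to 31 counts.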
